A study of Mus musculus with 2 samples.

Results

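The 8 genes described here encode striated-muscle myosin light chains or act on them. They are Myl1, Myl2, Myl3, Myl4, Myl6b, Myl7, Mylpf and Mylk2, taken by symbol from the 21911 protein-coding symbols of the mouse annotation, and all 8 were found on build mm10. Myosin is a motor made of heavy chains that carry light chains on the neck of each head. Essential light chains stiffen that neck, and regulatory light chains are phosphorylated by a calmodulin-dependent kinase, which raises the force of skeletal muscle at a given calcium level. Fast fibres, slow fibres and the heart use different light chain genes, and some genes carry a second start for another isoform.

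The data are from 1 group of 2 DNase-seq libraries of whole gastrocnemius, a mostly fast calf muscle, from male B6CASTF1/J mice at 14 days of age. DNase I cuts DNA that is not wrapped in nucleosomes, so a peak of cut ends marks open chromatin, and a short stretch within it that is cut less than its surroundings is called a footprint. B6CASTF1/J mice are first-generation hybrids of C57BL/6J and CAST/EiJ, and the sequences printed here are those of the C57BL/6J reference. There was no second condition to compare, and the values are therefore descriptions with no test. The labels call the libraries biological replicates. Both name the same donor entry, however, and nothing says that they came from separate animals, so their spread may be partly technical. The labels carry a mention of 3 males that they do not explain, and replicate 1 was sequenced on 2 instrument models.

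Replicate 1 had 82498 peaks and 320456 footprints, and replicate 2 had 88198 peaks and 384435 footprints. Read totals are not given, so the depth is unknown, but peak signals came in whole multiples of a step in each library (100% within 0.05 of a step), and the weakest member peak stood at 105 steps in replicate 1 and 82 in replicate 2. The tissue label was checked on marker promoters. All 8 skeletal muscle markers were open at their promoters in both libraries, against 61.7% of all protein-coding genes. So were 5 of 5 smooth muscle and pericyte markers, 3 of 3 fibroblast markers and 2 of 3 endothelial markers. Of the others, 2 of 3 Schwann cell, 1 of 3 leukocyte and 1 of 3 erythroid markers were open. Ranked among all genes, promoter signals had a median percentile of 65.3 for skeletal muscle markers. It was 81.2 for Schwann cell, 61.4 for fibroblast, 55.4 for smooth muscle and pericyte and 43.3 for endothelial markers. For heart, leukocyte and erythroid markers it was 18.3. The check therefore did not single out skeletal muscle. Of 6 heart markers only Gata4 was open, and Myh6, Nppa, Tnnt2, Nkx2-5 and Tbx5 had no strict promoter peak in either library. The permissive lists had one for Nppa in both libraries (0.569 in replicate 1 and 0.271 in replicate 2), for Tnnt2 in replicate 2 (0.220) and for Tbx5 in replicate 1 (0.390). In a bulk tissue, fewer cells of a type and less open chromatin per cell cannot be told apart.

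Of the promoters, these carry the results on which starts were open. Each window is the 130 bases before a start, read 5′ to 3′ along the gene, and capitals mark bases inside footprints of both libraries.
Myl1 first promoter, mm10 chr1:66945385-66945514, minus strand: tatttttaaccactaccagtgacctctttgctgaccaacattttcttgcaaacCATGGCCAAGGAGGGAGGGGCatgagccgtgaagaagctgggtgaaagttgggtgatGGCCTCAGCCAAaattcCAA
Myl1 inner promoter, mm10 chr1:66935355-66935484, minus strand: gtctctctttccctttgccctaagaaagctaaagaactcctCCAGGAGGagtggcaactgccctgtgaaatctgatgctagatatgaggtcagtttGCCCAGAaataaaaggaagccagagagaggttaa
Mylpf inner promoter, mm10 chr7:127211478-127211607, plus strand: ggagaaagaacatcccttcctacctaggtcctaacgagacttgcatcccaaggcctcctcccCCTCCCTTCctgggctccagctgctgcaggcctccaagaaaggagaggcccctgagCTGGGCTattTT
Myl6b promoter, mm10 chr10:128498686-128498815, minus strand: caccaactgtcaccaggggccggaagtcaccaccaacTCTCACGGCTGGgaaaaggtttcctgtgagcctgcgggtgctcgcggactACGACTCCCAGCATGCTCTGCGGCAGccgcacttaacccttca
Myl4 outer promoter, mm10 chr11:104550533-104550662, plus strand: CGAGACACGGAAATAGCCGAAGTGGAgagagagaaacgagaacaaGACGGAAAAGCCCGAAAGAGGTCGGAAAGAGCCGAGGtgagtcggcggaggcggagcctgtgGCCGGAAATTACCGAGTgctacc
The windows before Myl1 and Mylpf come from starts of fast-muscle genes. The outer Myl4 start lies 180 bases from a start of Cdc27. The nearest other gene to the inner Mylpf start is Tbc1d10b, at 3140 bases, and to the Myl6b start Myl6, at 4810 bases. In the Myl4 window 80 of 130 bases lay in footprints of both libraries, against 38 in the Myl6b window. There were 36 in the first Myl1 window, 18 before the inner Mylpf start and 15 before the inner Myl1 start. The first Myl1 window precedes a start at chr1:66945384 of the comprehensive annotation, not the first start of the basic annotation at chr1:66945143. The window before Mylk2 had no base in a footprint of both libraries and is not printed.

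Peaks within 1 kb of an annotated start, upstream or downstream, were taken as promoter peaks, and a gene was called open if it had a peak there in both libraries. Of the 8 genes 5 were open (Myl1, Mylpf, Mylk2, Myl6b and Myl4), against 61.7% of all protein-coding genes, so the members' share was close to the background. Myl3 had a promoter peak in replicate 1 only, and Myl2 and Myl7 had none in either library at the starts of the basic annotation. Replicate 1 alone had 6 members with a promoter peak and replicate 2 alone had 5, against 63.4% of all genes in each. With the permissive lists 6 members were open, against 65.7% of all genes, and the added gene was Myl3. Within 250 bases of a start 5 were open, against 58.6%, and within 2500 bases 5, against 64.3%. Counting only peaks no weaker than their library's median 5 were open, against 54.3%, and with the starts of the comprehensive annotation 6, against 63.4%. The median promoter percentile was 56.3 over the 8 members, against 50.1 over all genes and 69.4 over the genes open in both libraries. A percentile ranks the strongest promoter peak of a gene among all protein-coding genes of that library, with genes that have no peak tied at 18.3.

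**Figure D1:**
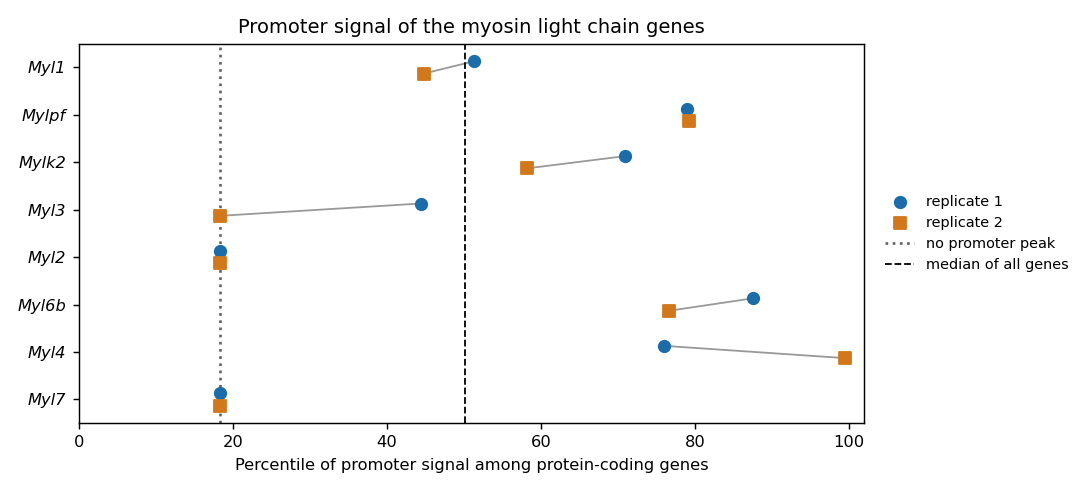
Percentile of promoter signal (horizontal axis) of the 8 genes in replicate 1 (circles) and replicate 2 (squares), with lines for genes without a promoter peak and for the median of all genes. Myl6b, Mylpf and Mylk2 lie right of the median in both libraries, Myl2 and Myl7 lie on the line of genes without a peak, and Myl4 is the open gene whose square stands furthest from its circle, to the right.

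Myl1 encodes the essential light chains of fast fibres, and its first and inner starts give the long and the short isoform. Its strongest promoter peak had a signal of 2.46 in replicate 1 and 0.853 in replicate 2, at percentiles of 51.3 and 44.8 (mean 48.1 ± 4.61, SD, n = 2). The level was therefore near the middle of all genes. Both groups of starts were open. At the inner starts (chr1:66935333-66935637) the signal was 1.17 in replicate 1 and 0.817 in replicate 2. In replicate 1 that was below the first start, and in replicate 2 the starts were close. The strongest peak of replicate 1 did not sit on the first start of the basic annotation, chr1:66945143, but 218 bases before it, where the comprehensive annotation lists a start at 66945384. In the printed window of that start, NFI motifs (TTGGC, either strand) at bases 58 to 62 and 118 to 122, counted from the 5′ end, lay wholly in footprints. Of all start windows of this length 25.9% held this motif.

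Mylpf encodes the regulatory light chain of fast fibres. Its promoter signal was 8.65 in replicate 1 and 4.73 in replicate 2, at percentiles of 78.9 and 79.2 (79.1 ± 0.194, SD, n = 2), and it was the member whose rank differed least between the libraries among those open. These peaks lie at the outer start, chr7:127208899, which is 431 bases from the start of Tbc1d10b on the opposite strand, so the 2 genes share the window. The replicate 1 peak, chr7:127208541-127209040, covers the Mylpf start, and the replicate 2 peak, chr7:127208561-127208740, lies 159 bases before it and 93 bases from the Tbc1d10b start. A weaker strict peak of replicate 2, chr7:127208781-127209460 with 2.48, covers the Mylpf start. The inner start at chr7:127211608 had its own peak, with 3.73 in replicate 1 and 0.908 in replicate 2. With peaks assigned only to the nearest start, the percentile of Mylpf was 71.2. The printed window before the inner start held the E-box form CAGCTG at bases 80 to 85, outside footprints, and 6.86% of all start windows held this form.

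Mylk2 encodes the myosin light chain kinase of skeletal muscle, the enzyme that phosphorylates the regulatory light chain. Its single start at chr2:152911352 had a signal of 6.58 in replicate 1 and 2.23 in replicate 2, at percentiles of 71.0 and 58.2 (64.6 ± 9.07, SD, n = 2). Both values were above the median of all genes. The nearest other protein-coding start, of Foxs1, lay 21856 bases away.

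Myl3 and Myl2 encode the essential and the regulatory light chain shared by slow fibres and the ventricle of the heart. Myl3 had a peak of 1.34 in replicate 1, at chr9:110765941-110766160 over its inner starts, and no peak in the strict list of replicate 2. In the permissive list of replicate 2 a peak of 0.473 stood there, so the libraries differed in whether it passed the strict list. The outer Myl3 start at chr9:110763646 had no peak in either list of either library. At the Myl2 starts (chr5:122100951-122100983) there was no strict peak, no permissive peak, no footprint and no base with an FDR below 0.05 within 1 kb in either library. The same held for Myl7, the regulatory light chain of the atrium, at chr11:5898782. Of all genes 34.8% had no strict peak in either library, 30.0% no permissive peak and 29.0% no such base.

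RefSeq places the 5′ end of Myl2 further upstream, at chr5:122092724. A peak of 0.909 lay beside it in replicate 1, at chr5:122093048-122093142, and replicate 2 had no strict peak there. With the starts of the comprehensive annotation the mean promoter percentile of Myl2 was 29.3, against 17.4 for Myl7. The lack of a Myl2 promoter peak therefore depends on the starts of the basic annotation. Within the Myl2 gene the single strict peak was in replicate 2, with a signal of 0.711 at chr5:122104334-122104470, where replicate 1 had a peak in the permissive list only.

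Myl6b encodes an essential light chain known from slow fibres and non-muscle cells, and it starts 4810 bases from Myl6, the light chain of smooth muscle and non-muscle cells. Its promoter signal was 11.6 in replicate 1 and 4.40 in replicate 2, at percentiles of 87.5 and 76.7 (82.1 ± 7.63, SD, n = 2). This was the strongest member promoter in replicate 1. Myl6 itself had 13.4 in replicate 1 and 6.66 in replicate 2, as a peak apart from that of Myl6b.

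Myl4 encodes the essential light chain of the atrium and of embryonic skeletal muscle. Its promoter signal was 7.79 in replicate 1 and 10.8 in replicate 2, at percentiles of 75.9 and 99.5 (87.7 ± 16.7, SD, n = 2). It was the only one of the 5 open members with the higher signal in replicate 2. Of 13512 genes open in both libraries, 44 (0.326%) differed in percentile by as much or more in that direction. The replicate 1 peak, chr11:104550441-104550700, covers the outer start at 104550663, and the replicate 2 peak, chr11:104550481-104550620, ends 43 bases before it. A start of Cdc27, a cell-cycle gene on the opposite strand, lies 180 bases from the Myl4 start and inside both peaks, so the signal cannot be assigned to either gene. The inner starts of Myl4 (chr11:104576985-104577281) had a peak of 0.858 in replicate 1 and none in the strict list of replicate 2, where the permissive list had one of 0.367. With peaks assigned only to the nearest start, the percentile of Myl4 was 48.2, it was no longer open in both libraries, and 4 of 8 members were open, against 59.9% of all genes.

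**Figure D2:**
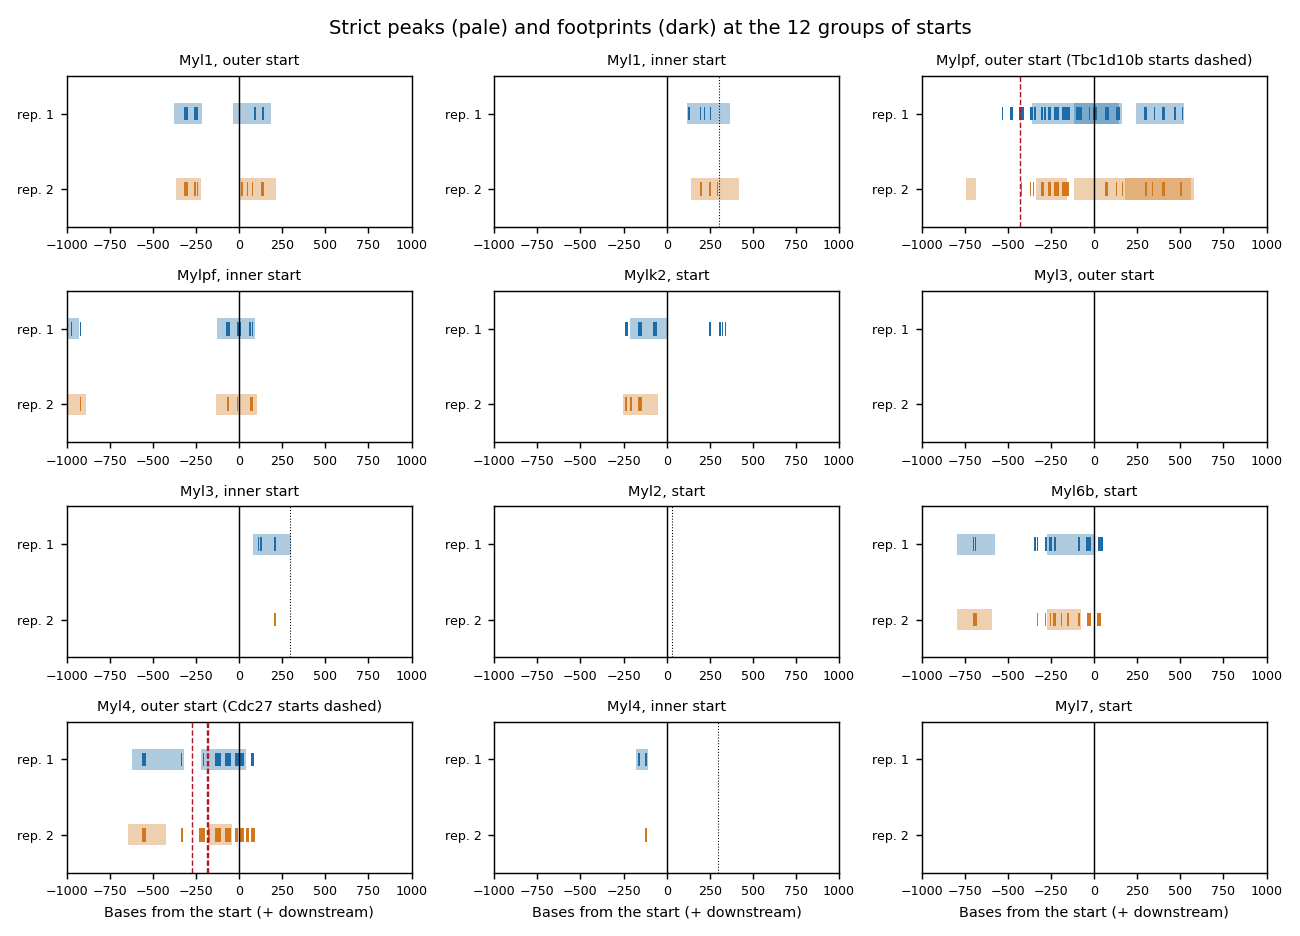
Strict peaks (pale bars) and footprints (dark marks) of replicate 1 (upper row of each panel) and replicate 2 (lower row) by distance in bases from the first start of each of the 12 groups of starts. Solid lines mark the start, dotted lines the last start of the group and dashed lines starts of a neighbouring gene; the panels of Myl2, Myl7 and the outer Myl3 start are empty.

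The FDR track is of the same libraries as the peaks, so it is not a separate line of evidence. Base by base it gave the same division. Within 1 kb of the starts, bases with an FDR of 0.001 or less numbered 1882 in replicate 1 and 1693 in replicate 2 for Mylpf. Mylpf, Myl1, Myl4 and Myl3 have 2 separate groups of starts each and so a wider window than the other members. For Myl4 they numbered 990 and 1222, for Myl6b 839 and 1097, and for Myl1 840 and 607. Mylk2 had fewer, with 358 in replicate 1 and 349 in replicate 2, against medians of 440 and 503 over all genes. Myl3 had 255 in replicate 1 and 0 in replicate 2, and Myl2 and Myl7 had 0 in both.

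Away from promoters, a distal region was a stretch with peaks in both libraries, outside the promoter window of every protein-coding gene and within 50 kb of a start of the member. Of all genes 73.4% had at least 1, and all 8 members did. Myl2, which had no promoter peak at the starts of the basic annotation, had 10 regions, the highest count at this window. Of all genes 3.49% had as many or more. Mylk2 had 8, Myl3 had 7, Myl7 had 6, Mylpf had 5, Myl4 had 4, and Myl1 and Myl6b had 3 each. The median was 5.5 over the members, against 2 over all genes. Of the 46 member regions, 18 had the member's start as the nearest protein-coding start and 8 lay inside the member, so most were nearer to the start of another gene. With the window at 20 kb the median was 3 over the members, against 1 over all genes. The order of the members changed with the setting. At 20 kb Mylk2 had 6, Mylpf and Myl3 had 4 each and Myl2 had 3, and at 100 kb Myl2, Mylk2 and Myl7 had 12 each. With peaks no weaker than their library's median Mylk2 and Myl3 had 5 each and Myl2 had 4, and by nearest start Mylk2 and Myl3 had 4 each and Myl2 had 3.

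**Figure D3:**
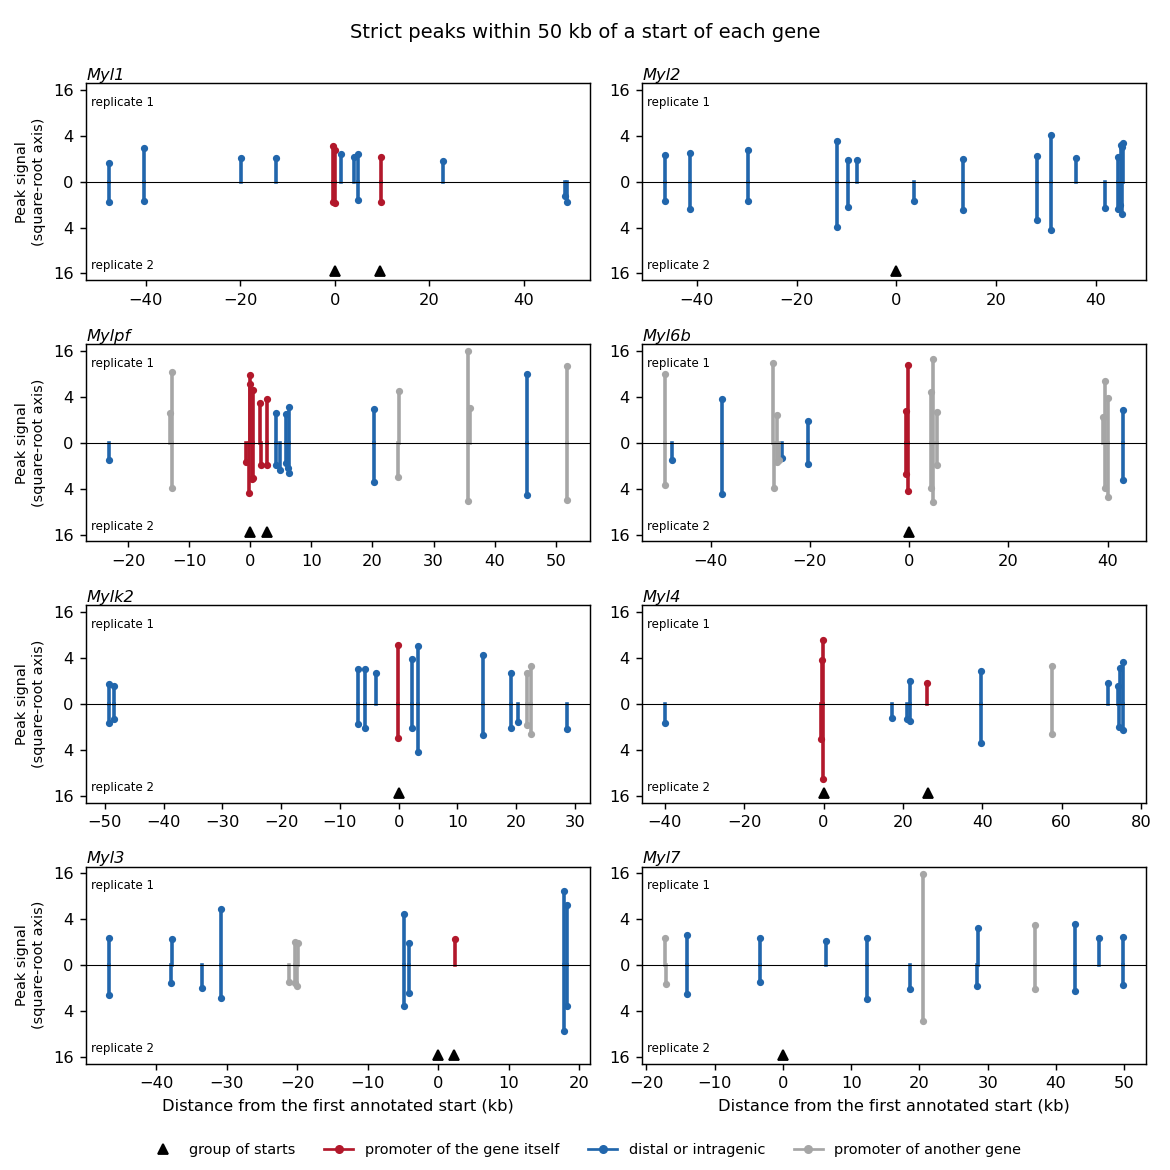
Signal of each strict peak (vertical axis, square-root scale; replicate 1 above the line, replicate 2 below it) by distance in kb from the first annotated start of each gene. Colours separate peaks at the gene's own promoter, distal or intragenic peaks and promoters of other genes, and triangles mark groups of starts; Myl2 has peaks on both sides but none at its start, and the strongest Myl3 peaks lie to the right of the gene's starts.

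The distal sites below carry the results outside promoters. They are the strongest intragenic site of Mylk2, on each side of the Myl3 starts the strongest site with Myl3 as its nearest gene, the strongest site with Myl2 as its nearest gene and a site beyond the end of Myl1. Each window is 200 bases centred on the strongest peak of replicate 1, and capitals mark bases in footprints of both libraries, except at the Myl1 site, where they mark footprints of replicate 1.
Myl1 downstream site, mm10 chr1:66922148-66922347, minus strand: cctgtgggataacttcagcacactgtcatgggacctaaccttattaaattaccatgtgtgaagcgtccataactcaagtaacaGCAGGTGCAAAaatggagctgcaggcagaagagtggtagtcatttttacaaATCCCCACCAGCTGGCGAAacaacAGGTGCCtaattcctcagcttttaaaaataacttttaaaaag
Mylk2 intron site, mm10 chr2:152914501-152914700, plus strand: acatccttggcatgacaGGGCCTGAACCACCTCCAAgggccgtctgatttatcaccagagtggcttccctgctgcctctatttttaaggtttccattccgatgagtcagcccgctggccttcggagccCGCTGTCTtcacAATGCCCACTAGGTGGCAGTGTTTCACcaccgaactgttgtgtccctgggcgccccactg
Myl3 upstream site, mm10 chr9:110758691-110758890, plus strand: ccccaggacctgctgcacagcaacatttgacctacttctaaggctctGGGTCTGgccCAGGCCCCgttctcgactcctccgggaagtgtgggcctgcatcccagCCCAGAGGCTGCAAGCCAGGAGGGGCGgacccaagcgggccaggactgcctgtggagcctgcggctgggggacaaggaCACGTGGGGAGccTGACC
Myl3 downstream site, mm10 chr9:110781481-110781680, plus strand: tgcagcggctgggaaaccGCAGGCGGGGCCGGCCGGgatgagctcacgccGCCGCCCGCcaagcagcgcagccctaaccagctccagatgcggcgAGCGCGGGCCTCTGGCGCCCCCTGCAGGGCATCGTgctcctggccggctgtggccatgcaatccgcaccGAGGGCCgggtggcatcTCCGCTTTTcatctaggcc
Myl2 upstream site, mm10 chr5:122089001-122089200, plus strand: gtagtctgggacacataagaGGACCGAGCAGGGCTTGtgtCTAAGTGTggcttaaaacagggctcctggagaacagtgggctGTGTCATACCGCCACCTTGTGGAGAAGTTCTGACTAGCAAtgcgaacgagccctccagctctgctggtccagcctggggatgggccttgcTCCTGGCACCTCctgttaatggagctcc
The Myl1 site had a signal of 0.858 in replicate 1 and no peak in either list of replicate 2, and it lies past the end of the gene. In the rat, a muscle enhancer of this locus is known downstream of the last exon, and whether the mouse site is its counterpart was not tested. Its window held E-boxes (CANNTG, the form bound by myogenic factors such as MyoD) at bases 53 to 58, 85 to 90, 143 to 148 and 158 to 163. Those at 85 and 143 lay wholly in footprints of replicate 1, and the one at 158 had 5 of its 6 bases in one. A MEF2 site, the motif of the MEF2 muscle factors, at bases 180 to 189 lay outside them.

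The strongest distal region of the 8 loci was the Myl3 downstream site, with 10.4 in replicate 1 and 8.25 in replicate 2, 15325 bases beyond the last Myl3 start. It ranked at percentiles 99.4 and 99.8 of all shared distal regions. A further region beside it, chr9:110781841-110782080, had 6.90 in replicate 1 and 3.20 in replicate 2. The Myl3 upstream site, chr9:110758701-110758900, had 4.99 in replicate 1 and 3.12 in replicate 2 and lies in an intron of the longer Myl3 models. Its window held the E-box CACGTG wholly in a footprint at bases 183 to 188. Further upstream, in an intron of Pth1r and nearer to that gene, chr9:110732661-110732980 had 5.91 in replicate 1 and 2.04 in replicate 2. Myl3 thus had a strict promoter peak in 1 library and, with Myl3 as the nearest gene, 3 distal regions with signals of 3.12 and above in both.

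The Mylk2 intron site, chr2:152914461-152914760, had 6.47 in replicate 1 and 4.40 in replicate 2, at percentiles 97.9 and 97.4 of shared distal regions. In replicate 2 that was above the Mylk2 promoter itself, and in replicate 1 it was close below. Its window held a MEF2 site at bases 78 to 87 and an MCAT element (CATTCC) at bases 94 to 99, both outside footprints. None of the searched motifs overlapped the shared footprints of this window, and motifs of other factors were not searched. A second intragenic region in a coding exon of Mylk2, chr2:152913561-152913769, had 3.84 in replicate 1 and 1.06 in replicate 2.

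The Myl2 upstream site, 11751 bases before the first Myl2 start, had 3.13 in replicate 1 and 3.88 in replicate 2. A stronger region, with 4.15 in replicate 1 and 4.43 in replicate 2, lay 30858 bases past the last start in an intron of Ccdc63. Mylpf had its strongest distal region, 9.15 in replicate 1 and 5.11 in replicate 2, in a coding exon of Zfp771, 42433 bases past its inner start and nearest to Dctpp1. Inside Myl4 a region 12920 bases past the last start had 2.12 in replicate 1 and 2.84 in replicate 2. The Myl7 region with Myl7 as its nearest gene had 1.37 in replicate 1 and 0.523 in replicate 2, 3279 bases before the start, at percentiles 53.8 and 17.2 of shared distal regions.

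The remaining shared regions that had the member as the nearest gene had signals of 3.00 or less. In Mylk2, whose kinase acts on the Mylpf product, they lay 6792 and 5552 bases before the start, the first with 2.29 in replicate 1 and 0.771 in replicate 2, and the second with 2.37 in replicate 1 and 1.06 in replicate 2. In Mylpf a region 889 bases before the inner start, inside its promoter window, had 3.00 in replicate 1 and 0.931 in replicate 2. Further regions lay 1333 bases past that start, with 1.72 in replicate 1 and 0.908 in replicate 2, and 2998 bases past it, with 1.62 in replicate 1 and 0.789 in replicate 2. All the Mylk2 and Mylpf regions named here had the higher signal in replicate 1. Signals ran higher in that library in general, by a median factor of 1.77 at shared promoter regions and 1.43 at shared distal ones. The direction alone therefore does not set these genes apart. In Myl1 an intronic region 4484 bases before the inner starts had 1.49 in replicate 1 and 0.610 in replicate 2, and a region 40258 bases before the first start had 2.12 in replicate 1 and 0.693 in replicate 2. The other Myl2 regions, 9591 bases before the first start and 13358 bases past the last, had 0.931 and 0.987 in replicate 1 and 1.20 and 1.53 in replicate 2. Both had the higher signal in replicate 2. The other Myl3 region, 4106 bases before the outer start, also had more in replicate 2, with 0.925 in replicate 1 and 1.46 in replicate 2. In Myl4 a region 4547 bases before the inner starts had 1.03 in replicate 1 and 0.518 in replicate 2.

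Only 10 motifs, all named below, were searched, on both strands in the 5 distal and 6 start windows. Motifs of other factors were not searched, so footprints without a match were left unassigned. CANNTG was in 3 of 5 distal windows, against 75.4% of 44392 shared distal windows, and in 3 of 6 start windows, against 39.0% of 41454 start windows. The MEF2 site was in 2 of 5 distal windows (the Mylk2 intron and Myl1 downstream sites), against 2.33%, and in 0 of 6 start windows, against 1.16%. MCAT was in 1 of 5 distal windows, against 13.1%, and CAGCTG, which is also counted as CANNTG, in 1 of 5, against 28.1%. The GC box (GGGCGG) was in 2 of 5 distal windows, against 11.7%, and in 0 of 6 start windows, against 35.3%. The CACC box (CCACCC) was in 1 of 5 distal windows, against 20.004%, and in 1 of 6 start windows, against 18.5%, and TTGGC was in 2 of 5, against 51.9%, and in 2 of 6, against 25.9%. No window held a CArG box (0.910% of distal and 0.668% of start windows), a MEF3 core (TCAGGTT, 2.82% and 1.52%) or TATAAA (4.97% and 6.04%). The Myl1 downstream site had a peak in replicate 1 only, so it is not among the shared distal windows behind these shares. The windows were few and were picked as described above after their signals were seen. The counts are therefore no measure of enrichment, and a match is not a site of binding.

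Footprints were about as dense at the members as elsewhere. Member promoter peaks had 1.60 per 100 bases in replicate 1 and 1.45 in replicate 2, against 1.42 and 1.53 at all promoter peaks. Member distal peaks had 1.52 in replicate 1 and 1.66 in replicate 2, against 1.44 and 1.55 at all distal peaks. Of 230 footprints in replicate 1 and 241 in replicate 2 at member peaks, 130 overlapped between the libraries. Shared footprints numbered 27 at Mylpf, 24 at Myl2, 19 at Myl3, 18 at Mylk2, 15 at Myl4, 11 at Myl6b, 9 at Myl1 and 7 at Myl7. Those of Myl2 and Myl7 were all distal.

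The libraries differed in signal by gene. The ratio of replicate 1 to replicate 2 was taken at each shared region, divided by the median ratio of 1.55 over all 63851 shared regions and put on a log2 scale. The inner Mylpf start stood at 1.41, above 99.8% of shared promoter regions, and the Mylk2 coding exon at 1.23, above 99.3% of distal regions. Regions with the gene's own start as the nearest were above 0 in 5 of 5 cases at Mylpf, 4 of 5 at Myl1 and 4 of 5 at Mylk2, the 3 fast-muscle genes. Such regions were above 0 in 1 of 1 case at Myl7, 2 of 4 at Myl3, 1 of 2 at Myl6b and 1 of 3 at Myl4. The main Mylpf promoter stood at 0.24, the same as the median over all open genes. At Myl2 regions with its own start as the nearest were above 0 in 0 of 3 cases, and over all its distal regions the median was -0.81. Over all promoter and distal regions, 6 of 8 were above 0 at Mylpf, 4 of 6 at Myl1 and 6 of 9 at Mylk2. The counts were 4 of 6 at Myl4, 4 of 6 at Myl7, 4 of 7 at Myl3, 1 of 5 at Myl6b and 2 of 10 at Myl2. By these counts the fast-muscle genes did not stand apart from Myl4 and Myl7. Those of Myl2 were all distal, while the counts at Mylpf, Myl1 and Mylk2 mix promoter and distal regions, so the counts are not of like regions. The region over the outer Myl4 start stood at -1.11, with 1.23% of shared promoter regions at or below it. Of all shared regions, 66.0% of promoter and 43.0% of distal ones were above 0, and of 57 member regions 31 were. Promoters of the skeletal muscle markers were above 0 in 8 of 8 cases, with a median of 1.27 (0.27 to 1.51), against 70.6% and a median of 0.24 over all open genes. Of the open markers of other cell types, 2 of 5 smooth muscle and pericyte, 2 of 3 fibroblast, 1 of 2 Schwann cell, 0 of 2 endothelial, 0 of 1 leukocyte, 1 of 1 erythroid and 1 of 1 heart markers were above 0. The part of cell composition, of depth or of the second instrument model in these ratios was not tested.

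**Figure D4:**
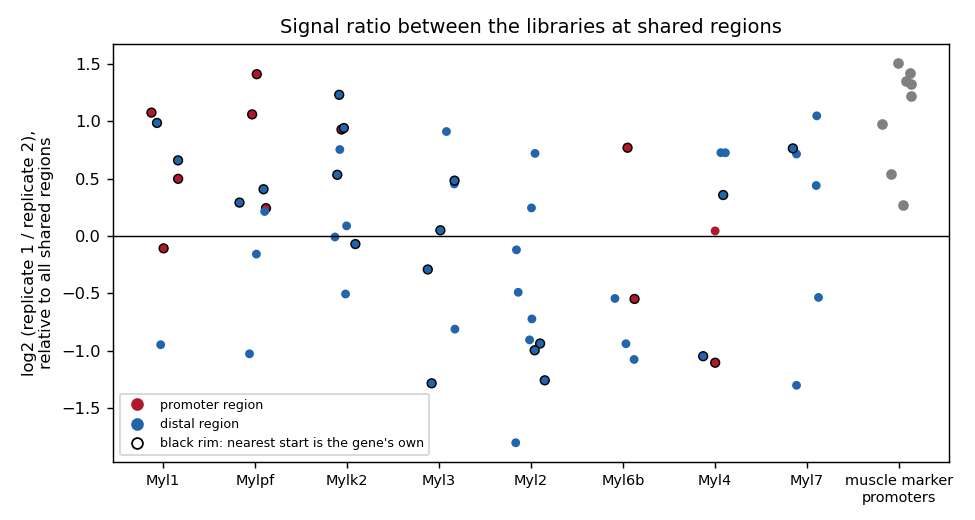
Log2 ratio of replicate 1 to replicate 2 signal (vertical axis), relative to all shared regions, at each shared promoter or distal region of the 8 genes and at the 8 skeletal muscle marker promoters. Black rims mark regions whose nearest start is the gene's own; those of Mylpf all lie above 0 and those of Myl2 all below, and the muscle marker promoters lie between 0.27 and 1.51.

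Among 15 other genes of the light chain pathway, 12 were open in both libraries, against 61.7% of all genes. With the starts of the comprehensive annotation 14 were open, against 63.4%, so not all of Myl10, Mylk and Mylk4 stayed closed there. Their median percentile was 83.1, against 50.1 over all genes and 69.4 over the genes open in both libraries. Of the other light chains, Myl6 is given above, and Myl12a had 21.9 in replicate 1 and 8.47 in replicate 2, Myl12b had 3.59 and 2.70, and the smooth muscle chain Myl9 had 2.35 and 1.14. Myl10 had no promoter peak at the starts of the basic annotation. Of the other kinases, Mylk and Mylk4 had no strict peak at the starts of the basic annotation in either library. The permissive list of replicate 1 had one of 0.518 for Mylk. Mylk3, the heart kinase, had 0.959 in replicate 1 and 0.656 in replicate 2, against 6.58 and 2.23 for Mylk2. Of the myosin phosphatase genes, the catalytic subunit Ppp1cb had 21.2 in replicate 1 and 5.67 in replicate 2, and the targeting subunits Ppp1r12a, Ppp1r12b and Ppp1r12c had 14.1, 12.6 and 11.3 in replicate 1 and 6.95, 4.61 and 4.14 in replicate 2. Calm2 and Calm3, which code for the calcium sensor of the kinase, had 12.9 and 18.3 in replicate 1 and 5.75 and 9.84 in replicate 2. The phosphatase genes, Calm2 and Calm3 had higher promoter signals in both libraries than Myl1, Myl3, Myl2 and Myl7.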

How the data were processed

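DNase-seq was measured in 2 libraries of gastrocnemius. Per the labels, both are biological replicates of 1 group. The peak signal is the authors' value, deposited per peak and called per library, and no header or label states its scaling. The FDR per base (an adjusted p-value) and the footprint threshold of 0.01 are as deposited by the authors, and the FDR track lists bases under 0.05. Names and versions of the aligner and callers were not given in the sources used here. Whether reads of CAST/EiJ origin align less well to the reference was not tested.

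The list with fewer peaks per library was used as the strict list and the other as the permissive list. Starts were those of GENCODE M21 (basic set, protein-coding). Promoter windows of 1 kb, distal windows of 50 kb and shared peaks (overlap of 1 base) were computed with Python 3.11.15, NumPy 2.4.6 and pandas 2.3.3, and the functions were tested on simulated peaks. Sequences are from GRCm38.p6 (mm10), and 8 of 8 RefSeq promoter sequences of the members equalled it. The members, lists, motifs and windows were chosen with earlier results of these data known. All 8 members and the pathway genes are named, with neighbours where their start is nearer to a region; 1 gene that the rule selects is not reported here. The printed windows were chosen after their signals were seen. No test was made.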

Additional observations from a re-analysis of the deposited data

How the results depend on the processing

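The count of open members stayed between 4 and 6 of 8, and that of pathway genes between 11 and 14 of 15, under windows of 250 and 2500 bases, the permissive list, peaks at or above the library median, the comprehensive annotation, nearest-start assignment and each library alone. The comprehensive annotation, the nearest-start assignment and, for the pathway and the percentile, the restriction to peaks at or above the median were chosen after seeing the data. The members' median percentile was 49.0 with nearest-start assignment, against 56.3, and 51.5 to 61.1 with 1 library left out. The 46 distal regions became 23 at 20 kb, 70 at 100 kb, 75 with the permissive list and 26 at or above the library median. They became 18 with the member as nearest gene and 41 with a reciprocal overlap of 50%. With 1 library left out no region can be shared, and the distal peaks of the other library numbered 60 to 63. The 130 shared footprints became 119 for those wholly inside a peak and 162 with the permissive list. With 1 library left out no footprint can be shared, and all footprints at peaks of the other library numbered 230 to 241. Members with bases at an FDR of 0.001 or less numbered 5 in both libraries and 5 to 6 with 1 library left out, also chosen after seeing the data. Read totals are unknown, so the part of depth in peaks listed in 1 library was not tested. No paired analysis was possible because there is 1 group.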
